A study of Mus musculus with 4 samples.

Results

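The nrRNA class is one of 10 annotation classes that the authors gave to the small RNA sequences of mouse testis. Its members were all sequences with nrRNA as their class in the deposited table, 24159 of 4496542 distinct sequences, with 228919 reads over 4 libraries. All 34506 lines of the class carried NA as the name and nrRNA again as the subclass, so the table itself set no groups within it, and it does not spell out the abbreviation. None of its sequences had another class on any line. The members were therefore described by their place in the genome, their length and their first base.

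Small RNA libraries came from whole testes of mice at postnatal day 16, 2 wild type and 2 with Hsf5 knocked down, on which the labels name no other allele, promoter or agent. Each library is labelled a biological replicate, and the sources used here do not say whether animals were pooled. The table calls the knockdown libraries KO, and the wording of the labels is kept here. Per its design text, the series asked how piRNAs differ between the 2 genotypes during spermatogenesis.

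PIWI-interacting RNAs, or piRNAs, are germline small RNAs cut from long single-stranded transcripts, and most begin with U. They guide PIWI proteins that silence transposons and other transcripts. Ribosomal RNA is made as a long precursor whose 18S, 5.8S and 28S parts are separated by spacers, and the spacer before the 18S part is removed and degraded. B1 elements are short interspersed repeats present throughout the mouse genome.

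The reads of the class fell into a few kinds of place, and the sequences below are abundant examples from the main ones. In the first set each line is a whole stretch of genome (GRCm39) covered by overlapping nrRNA sequences with 1 exact place, read 5′ to 3′ on the strand of the reads, with its most abundant sequence in capitals. The stretch before Rn18s-rs5 lay at chr17:40153889-40153973 on the plus strand, the stretch in the piRNA locus 12-qE-23911 at chr12:98366884-98366932 on the minus strand, the stretch in the piRNA locus 17-qA3.3-27363 at chr17:27527979-27528018 on the minus strand, and the stretch in the Asap1 intron at chr15:64164561-64164596 on the minus strand.
Spacer before Rn18s-rs5: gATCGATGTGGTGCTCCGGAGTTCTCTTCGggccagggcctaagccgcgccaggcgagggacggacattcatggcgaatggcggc
Locus 12-qE-23911: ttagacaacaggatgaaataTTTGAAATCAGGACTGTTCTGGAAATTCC
Locus 17-qA3.3-27363: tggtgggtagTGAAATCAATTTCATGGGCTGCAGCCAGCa
Asap1 intron: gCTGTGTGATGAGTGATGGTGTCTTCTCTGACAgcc

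The second set shows nrRNA sequences of other piRNA stretches, with the first base in capitals because U (T in the table) is the usual first base of a piRNA. The stretch in 17-qA3.3-27363 lay at chr17:27517528-27517689 on the minus strand, that in 17-qA3.3-26735 at chr17:27581341-27581493 on the plus strand, and those in 14-qA3-19970 at chr14:24160737-24160891 and chr14:24140235-24140341 on the plus strand.
17-qA3.3-27363, stretch 3: Ttctataccaggaccaacagacacgtg
17-qA3.3-26735, stretch 7: Tatgttggtcccgaaaatatcttgtg
14-qA3-19970, stretch 9: Taaatgtgtgcttgagaacagtgatc
14-qA3-19970, stretch 11: Taggacttgagtttgggacactacatc

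The last sequence shown here is the most abundant of those with more than 100 places, and it matched GRCm39 exactly at 37610 places. Capitals mark the 15 bases that were also searched in the other classes.
Repeated core: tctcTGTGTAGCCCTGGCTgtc

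Wild type replicate 1 had 11117460 counted reads, wild type replicate 2 had 9260452, knockdown replicate 1 had 9619666 and knockdown replicate 2 had 10900306, and values below follow this order. Reads per 1000000 counted reads are written RPM, and a count of 0 allows up to 0.270, 0.324, 0.312 and 0.275 RPM, a limit of 3 counts. The 6 germ cell miRNAs listed as testis markers summed to between 15659 and 21071 RPM, the 4 of testis somatic cells to between 7007 and 8812 RPM, and those of blood to between 29.1 and 43.6 RPM. Among the germ cell markers miR-470-5p took 9578 to 14157 RPM and miR-34b-5p at most 0.216 RPM. The 3 muscle markers summed to between 240 and 333 RPM, of which miR-1a-3p took 238 to 331 RPM. The other muscle markers, miR-133a-3p and miR-206-3p, reached at most 1.73 and 0.540 RPM. For brain, miR-9-5p lay between 54.0 and 87.1 RPM and miR-124-3p was not listed. The liver marker miR-122-5p reached at most 0.642 RPM. Their part in the results below was not tested, and small RNA libraries hold no measure of Hsf5 itself. In whole testis, fewer cells of a type and less RNA per cell cannot be told apart. Counts of nrRNA sequences differed between libraries of the same group by more than sampling noise, and chi-square divided by its degrees of freedom was 8.35 for the wild type pair and 23.4 for the knockdown pair.

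The class held 64935, 55242, 36657 and 72085 reads, which is 0.584%, 0.597%, 0.381% and 0.661% of the counted reads. On the RPM scale these were 5841, 5965, 3811 and 6613, with group means of 5903 ± 88.1 (SD, n = 2) and 5212 ± 1982 (SD, n = 2). The values of the wild type fell between those of the knockdown pair, so the groups overlapped (exact two-sided permutation p = 1.0). With 2 libraries against 2 the smallest p this test allows is 0.333. Fitted as 1 name among 1925 names of the table, the class had a log2 difference of -0.05 (knockdown against wild type, SE 0.47, adjusted p = 0.999 in edgeR's quasi-likelihood fit after Benjamini-Hochberg adjustment). That fit called 0 names, a background of 0.0%, with 6 names at an unadjusted p under 0.05. DESeq2 also called 0 names, with 7 at an unadjusted p under 0.05. Without knockdown replicate 1 the log2 difference of the class was 0.35 and without knockdown replicate 2 it was -0.73.

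The reads were concentrated in few sequences. The most abundant sequence took 8.44% of the class, the leading 10 took 24.3% and the leading 100 took 50.4%. At the other end, 12402 sequences, or 51.3%, had a single read over all libraries. The 1320 sequences present in all 4 libraries held 60.3% of the reads, and the 18237 found in 1 library held 11.9%.

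All reads of the class had an exact place in GRCm39, and 81.5% of them had 1 place. Most lay inside piRNA loci, the intervals that the table's own names of piRNA transcripts span. These loci held 52.7% of the class, the spacer before Rn18s-rs5 held 21.5% and the repeated core 7.67%. Other sequences with more than 100 places took 4.94%, those with 2 to 100 places took 3.85%, the Asap1 intron stretch 2.99%, exons of coding genes outside the loci 2.44% and the other single places 3.92%. The mix differed strongly between libraries, and loci took 36.4% of the class in wild type replicate 1 and 70.1% in knockdown replicate 2.

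**Figure D1:**
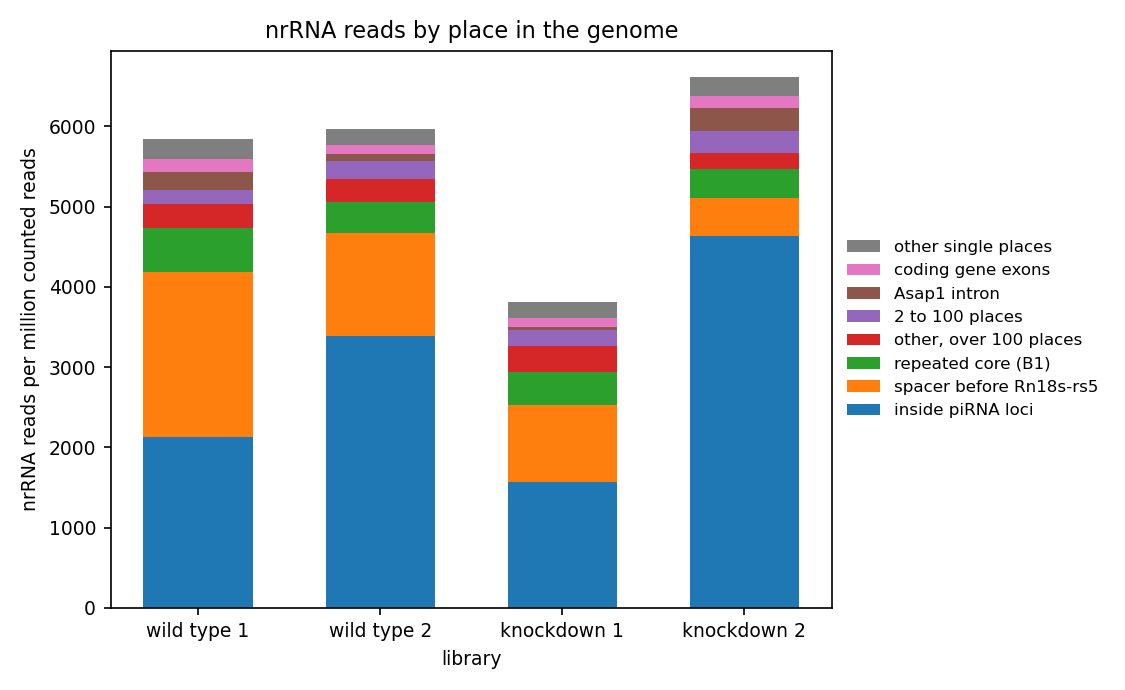
Stacked bars of nrRNA reads per 1000000 counted reads (vertical axis) in each of the 4 libraries, coloured by place in the genome. The spacer segment goes from 2058 RPM in wild type replicate 1 to 475 RPM in knockdown replicate 2, and the piRNA locus segment from 1571 RPM in knockdown replicate 1 to 4633 RPM in knockdown replicate 2.

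Reads of piRNA length, 25 to 31 nt, made up 64.0% and 70.4% of the class in the wild type (67.2 ± 4.51, SD, n = 2) and 55.6% and 80.0% in the knockdown (67.8 ± 17.3, SD, n = 2; exact permutation p = 1.0). In all other reads the same lengths took 51.6%, 57.4%, 45.2% and 64.3%, which puts the libraries in the same order. The strongest single length was 29 nt in 3 libraries, at 17.97%, 19.56% and 27.91% of the class. In knockdown replicate 1 it took 6.05%, and 27 nt led with 15.2%. Reads of 29 to 31 nt held 30.8%, 30.9%, 10.7% and 39.4%, so knockdown replicate 1 stood below the other 3 libraries. Short reads of 16 to 24 nt took 26.6%, 25.6%, 41.5% and 13.1%. Wilson intervals (95%) of the shares of 25 to 31 nt and of U were at most 0.559 points wide on each side. They and the floors cover counting error only.

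**Figure D2:**
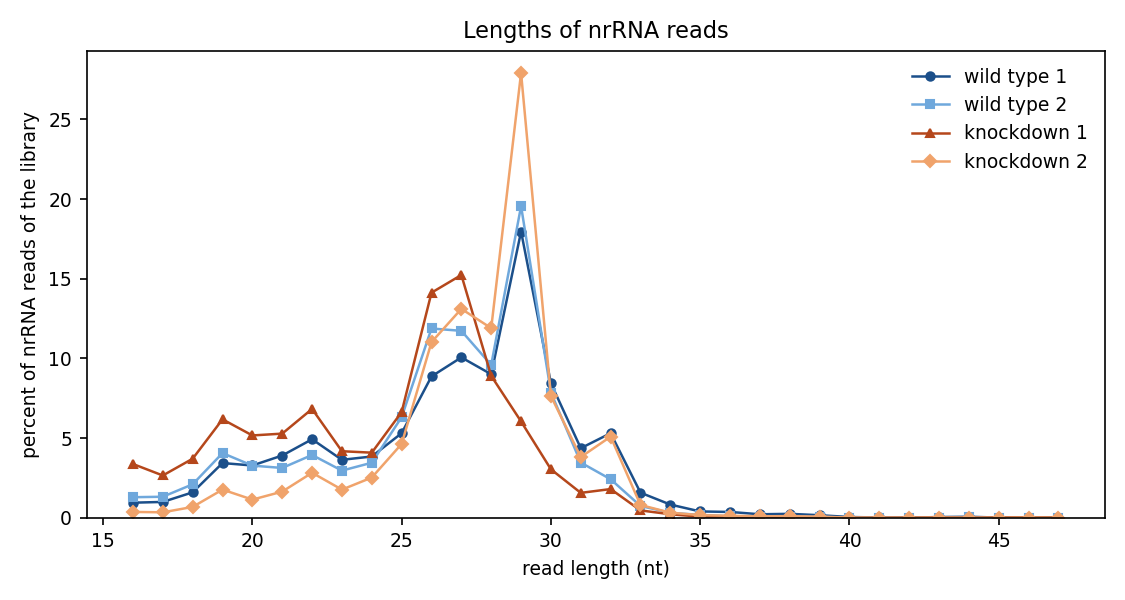
Percent of the nrRNA reads of each library (vertical axis) at each read length in nt (horizontal axis), 1 line per library. Wild type replicates 1 and 2 and knockdown replicate 2 peak at 29 nt with 17.97%, 19.56% and 27.91%, while knockdown replicate 1 peaks at 27 nt with 15.2%.

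U was the first base of 53.1%, 68.0%, 61.2% and 82.0% of the class (group means 60.6 ± 10.5 and 71.6 ± 14.7, SD, n = 2; exact permutation p = 0.667). Among reads of 25 to 31 nt it was 64.5%, 80.9%, 79.6% and 90.8% (exact permutation p = 0.667), against 76.5%, 83.6%, 81.7% and 85.2% in all other reads of that length. The first base differed widely between places. Inside piRNA loci U began 91.7%, 92.2%, 91.3% and 94.4% of the nrRNA reads. In the spacer it began 8.88%, 7.07%, 9.66% and 7.24%, where the leading sequences begin with A. Lengths also differed between places, with 93.4%, 93.2%, 91.3% and 94.9% of the locus reads at 25 to 31 nt. In the spacer these lengths took 52.5%, 37.5%, 25.5% and 32.1%. In the repeated core, where U began most reads, they took 26.97%, 25.19%, 17.16% and 22.96%.

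Merging overlapping nrRNA sequences of 1 place gave 5698 stretches, and the 77 with at least 100 reads held 91.8% of the single-place reads. They were 36 to 548 nt long with a median of 102 nt, and 99.7% of their reads lay on the stronger strand. Of these 77 stretches, 65 lay inside piRNA loci. Class went with place: of 171389 single-place reads of any class that lay wholly inside the 77 stretches, 171389 were nrRNA. Reads that crossed an edge belonged to other classes, by the way the stretches were built, and 93.6% of those 41572 reads were of the piRNAcluster class. At the leading 5′ ends of the 12 strongest stretches, 2 had forms of both classes, at stretches 2 and 4, and the other 10 had nrRNA forms and no piRNAcluster form.

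The locus 12-qE-23911 (chromosome 12, 98345204 to 98386307, minus strand) holds stretch 2. At its leading 5′ end, base 98366912, the forms of 17 to 29 nt were nrRNA, with 3407, 4872, 0 and 14502 reads, and those of 30 to 46 nt were piRNAcluster, with 1284, 1039, 0 and 3327 reads. In the lines below, from the same 5′ end, capitals mark the bases past the edge of the stretch.
28 nt, nrRNA: tttgaaatcaggactgttctggaaattc
29 nt, nrRNA: tttgaaatcaggactgttctggaaattcc
30 nt, piRNAcluster: tttgaaatcaggactgttctggaaattccA
32 nt, piRNAcluster: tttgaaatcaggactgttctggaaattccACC
The 29 nt form alone had 2924, 4134, 0 and 12263 reads and was the most abundant sequence of the class. The 32 nt form had 1098, 818, 0 and 2509 reads. At the stretch of 17-qA3.3-27363 shown first above, the 5′ end at base 27528008 gave nrRNA for 20 to 30 nt, with 2311, 2743, 348 and 2488 reads, and piRNAcluster for 31 to 43 nt, with 144, 155, 3 and 231 reads.

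The spacer before Rn18s-rs5, an 18S ribosomal RNA gene (chromosome 17, 40157244 to 40159092, plus strand), gave the strongest stretch of the class. The stretch is built from reads with 1 exact place in GRCm39, and any copies outside that build were not searched. It is 85 nt long, lies in no GENCODE gene, and held 44561 reads, with 1 of them on the minus strand. A single 5′ end at base 40153890, 3354 bases before the gene, began 76.2% of them. The stretch took 1833, 1184, 860 and 454 RPM, with each knockdown library under each wild type library. Together with multi-place reads of the same window the spacer took 2058, 1281, 959 and 475 RPM, with means of 1669 ± 549 and 717 ± 342 (SD, n = 2; exact permutation p = 0.333, the smallest the design allows). In the fit the log2 difference of the stretch was -1.18 (SE 0.48, unadjusted p = 0.0539, adjusted p = 0.9998 by edgeR's quasi-likelihood test). Its log2 difference lay between -1.57 and -0.81 when each library was left out, and its adjusted p over the alternatives between 0.0773 and 0.9999.

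Spacer reads came in a short and a long form that shared the leading 5′ end. The lines below show the 19 nt form and the 29 nt form, with the 19 bases they share in capitals.
19 nt: ATCGATGTGGTGCTCCGGA
29 nt: ATCGATGTGGTGCTCCGGAgttctcttcg
The 19 nt form took 109.6, 118.1, 108.1 and 63.1 RPM, so 3 libraries were close and knockdown replicate 2 was lower. The 29 nt form took 316, 142, 46.7 and 49.5 RPM, with a log2 difference of -2.45 (SE 0.75, unadjusted p = 0.0166, adjusted p = 0.99999 by edgeR's quasi-likelihood test over 103209 sequences). Summed over the leading 5′ end, reads of 25 nt or longer took 828, 381, 159.8 and 135 RPM and those of 16 to 24 nt took 563, 528, 470.1 and 232 RPM. The longer reads were 59.5%, 41.9%, 25.4% and 36.8% of the reads at this end (exact permutation p = 0.333, the smallest the design allows). In each of these 3 measures the knockdown values did not overlap the wild type and were lower. The ncRNA class of the table took 158744, 99361, 124803 and 69638 RPM, in which the groups overlapped, and its part in the spacer values was not tested.

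**Figure D3:**
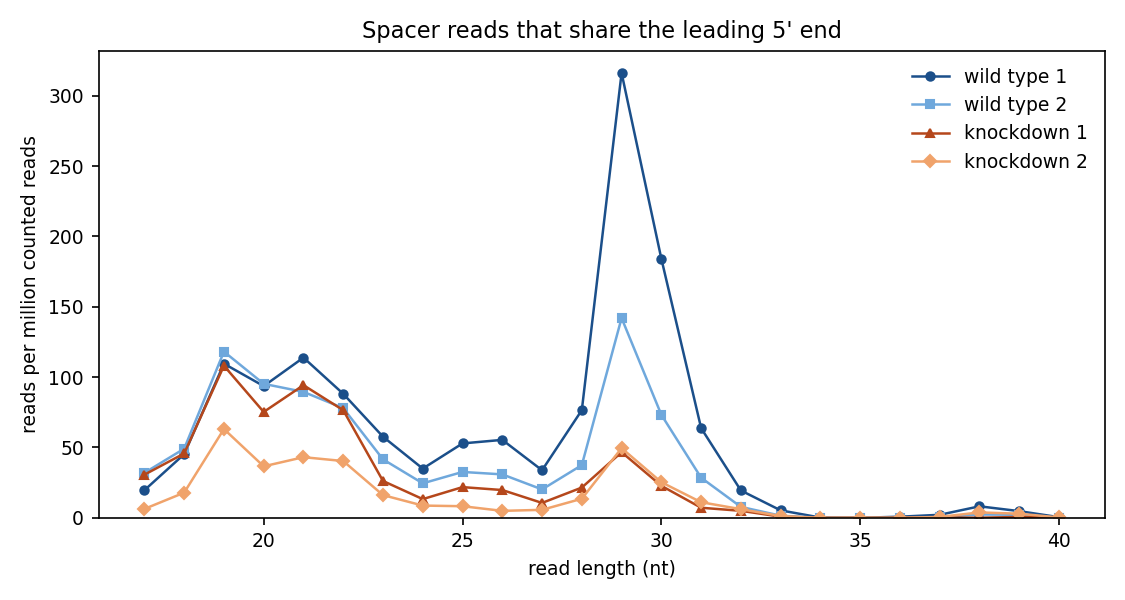
Reads per 1000000 counted reads (vertical axis) by read length in nt (horizontal axis, 17 to 40 nt) for spacer reads that share the leading 5′ end, 1 line per library. At 29 nt the wild type libraries reach 316 and 142 RPM and the knockdown libraries 46.7 and 49.5 RPM, and at 19 nt the libraries lie between 63.1 and 118.1 RPM.

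Reads inside piRNA loci took 2125, 3394, 1571 and 4633 RPM, with means of 2759 ± 897 and 3102 ± 2165 (SD, n = 2; exact permutation p = 1.0). The knockdown pair had both the lowest and the highest level. Within the loci 99.5% of the nrRNA reads were on the strand of the precursor. The ratio of reads of 29 to 31 nt to reads of 25 to 28 nt was 0.805, 0.769, 0.167 and 1.07. The piRNAcluster class gave ratios of 0.430, 0.421, 0.146 and 0.532, again lowest in knockdown replicate 1. Without the strongest stretch, in 12-qE-23911, the nrRNA ratio was 0.589, 0.543, 0.167 and 0.595, and the reads in loci took 1818, 2866, 1571 and 3299.5 RPM.

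**Figure D4:**
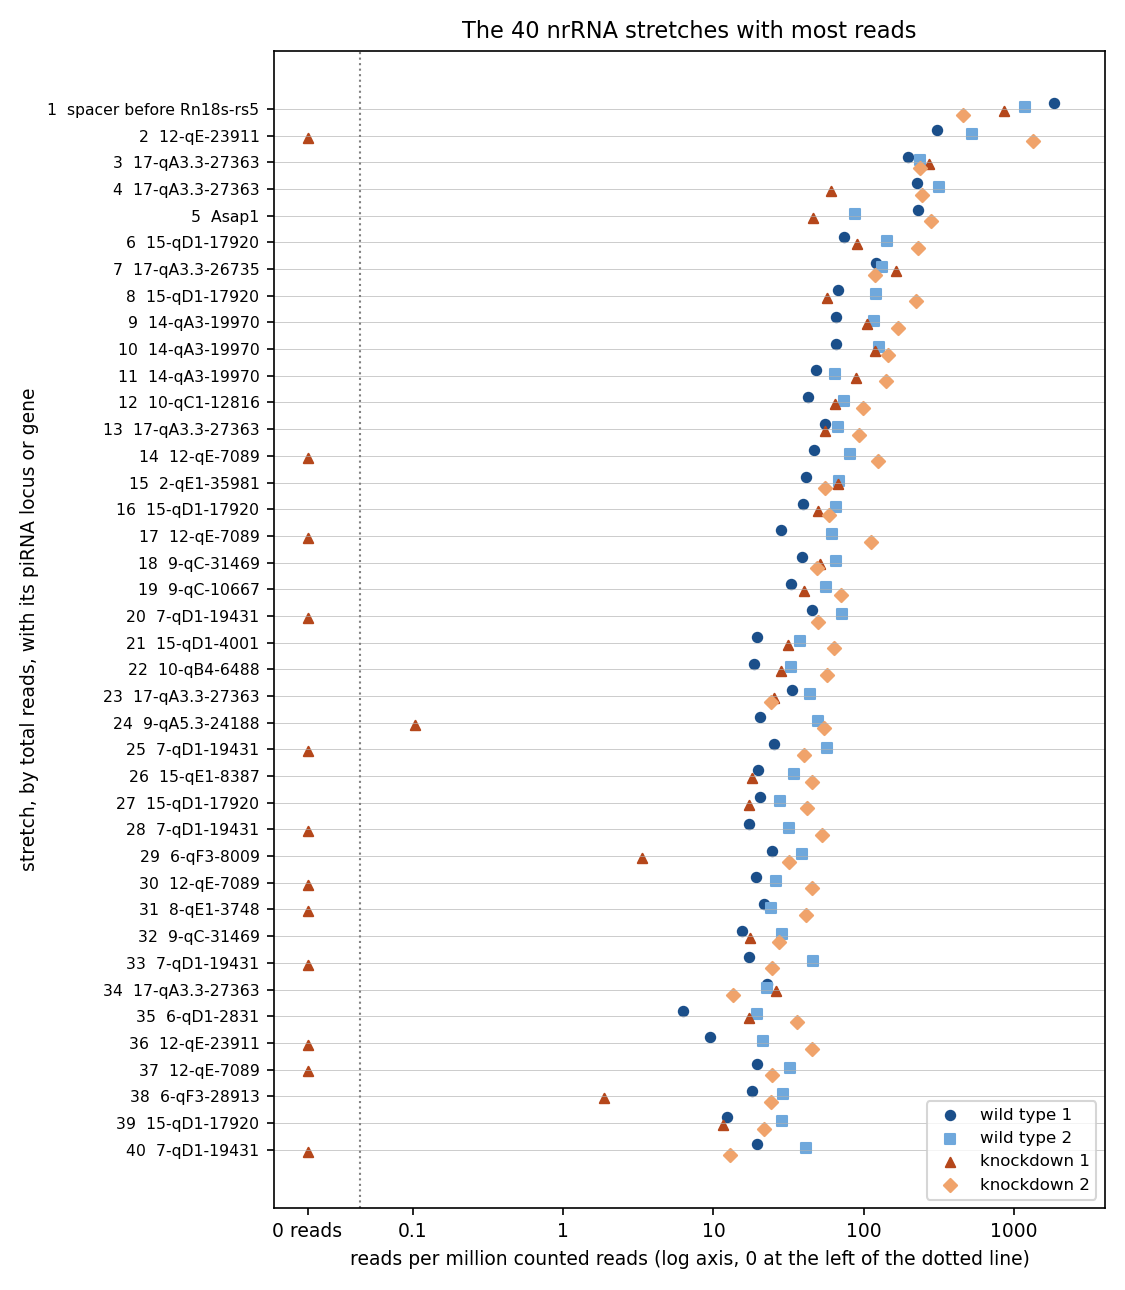
Reads per 1000000 counted reads (log axis, with 0 reads drawn left of the dotted line) in the 4 libraries for the 40 stretches with most nrRNA reads, each labelled with its piRNA locus or gene. Knockdown replicate 1 has 0 reads at stretches such as 2, 14, 17 and 20, where the other libraries lie between 28.1 and 1334 RPM, and it lies close to the others at stretches such as 3, 7 and 10.

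Knockdown replicate 1 lacked many of the piRNA stretches. It lay below 5% of the lowest other library at 26 of the 77 stretches, 33.8% of them, and had 0 reads at 25. Over the 2044 names and stretches with 1 RPM in at least 2 libraries the same limit was met by 4.65%, that is by 95, of which 53 were piRNAcluster names and 36 were nrRNA stretches. All 26 lay in piRNA loci, 10 loci on 7 chromosomes, and the limit was chosen after the values were seen. In knockdown replicate 2 the same limit was met by 0 of the 77. Summed, the 26 stretches took 684, 1217, 0.104 and 2096 RPM. The class without them took 5157, 4749, 3811 and 4518 RPM.

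The strongest of these was the stretch of 12-qE-23911, which took 307, 528, 0 and 1334 RPM. Against the limit that a count of 0 allows, knockdown replicate 1 was at least 986-fold lower than the lowest other library. Its fitted log2 difference of 0.90 (SE 3.35, adjusted p = 0.9998 by edgeR's quasi-likelihood test) joins 2 knockdown libraries that lie below and above the wild type. In 12-qE-7089 (chromosome 12, 98386407 to 98422224, plus strand), the neighbouring locus, stretch 14 took 46.8, 80.7, 0 and 124 RPM and stretch 17 took 28.1, 61.8, 0 and 111 RPM. Both lie antisense to introns of Kcnk10, which encodes a potassium channel. In 7-qD1-19431 (chromosome 7, 72755060 to 72796527, plus strand) stretch 20 took 45.2, 71.8, 0 and 49.8 RPM. The stretch of 9-qA5.3-24188 in an intron of Cyp19a1, the gene of aromatase, had 1 read in knockdown replicate 1 and took 20.3, 49.9, 0.104 and 54.1 RPM.

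The same loci were low by their piRNAcluster reads. Of the 32 loci with at least 100 nrRNA reads, 12 were below 5% of the lowest other library in knockdown replicate 1 by nrRNA reads, 12 by piRNAcluster reads, and 12 by both. The table has 214 piRNA loci with a single-place read, 86 of them with a nrRNA stretch. How many of all these loci met the limit is not given here, so the 12 do not set the 32 apart from other loci. The piRNAcluster reads of 12-qE-23911 took 3090, 5287, 0.520 and 7237 RPM and those of 12-qE-7089 took 2633, 4316, 0.104 and 5377 RPM. That some loci were nearly silent in this library was already known from the piRNAcluster reads when the stretches were examined, and the 2 classes come from the same libraries. A middle level was seen in the neighbouring loci 6-qF3-8009 and 6-qF3-28913, with nrRNA at 26.5, 41.3, 3.53 and 38.1 RPM and at 24.5, 46.5, 2.60 and 30.5 RPM. The share of nrRNA among both classes in a locus ranged from 0.0946% to 12.7% with a median of 1.35%, and it was highest in 12-qE-23911.

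**Figure D5:**
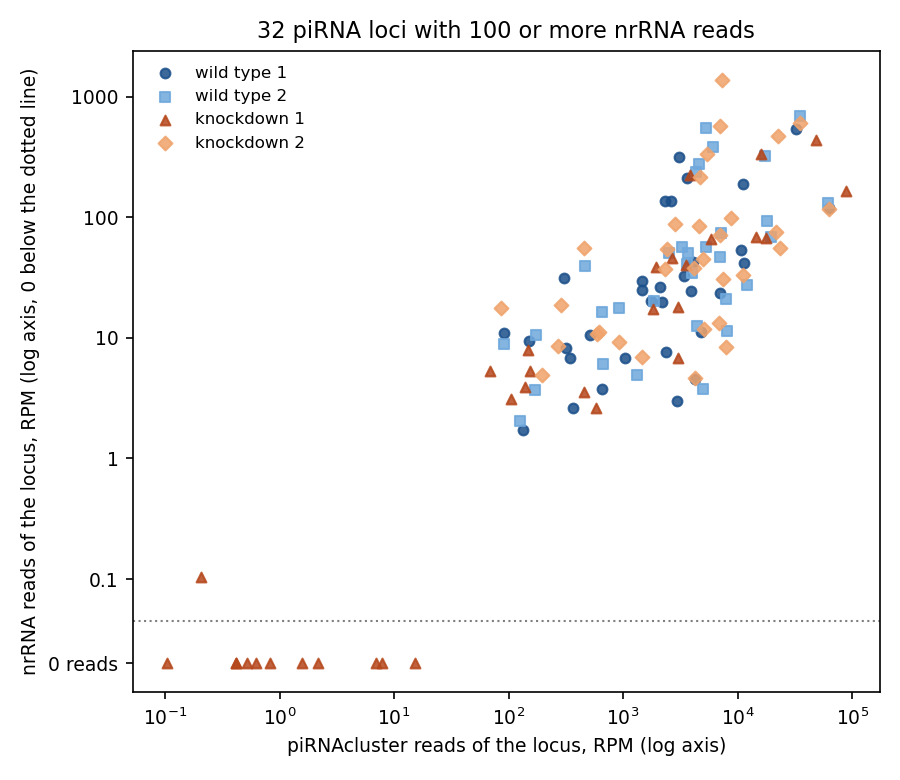
Each point is 1 of 32 piRNA loci in 1 library, with piRNAcluster reads (horizontal axis, RPM, log scale) against nrRNA reads (vertical axis, RPM, log scale, 0 reads below the dotted line). The 12 loci low in knockdown replicate 1 form the group at the lower left, with piRNAcluster levels from 0.104 to 15.4 RPM.

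Other loci kept their nrRNA reads in all 4 libraries. In 17-qA3.3-27363 (chromosome 17, 27507250 to 27544002, minus strand), which held 5 of the 77 stretches, stretch 3, antisense to an intron of the long non-coding gene Gm65436, took 198, 235, 271 and 237 RPM, with a log2 difference of 0.30 (SE 0.39). Stretch 4, in an intron of Gm49793, took 227, 317, 60.8 and 242 RPM. Knockdown replicate 1 was the lowest there and the highest at stretch 3, within the same locus. Stretch 13, in no gene, took 54.9, 67.7, 55.2 and 93.3 RPM, and stretches 23 and 34 had 1285 and 860 reads. The piRNAcluster reads of the locus took 32233, 34914, 48223 and 34911 RPM. In 17-qA3.3-26735 (chromosome 17, 27544171 to 27586457, plus strand) stretch 7 lies in an exon of Gm49794 and took 119.7, 132, 165 and 118 RPM.

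In 14-qA3-19970 (chromosome 14, 24132062 to 24180159, plus strand) 4 of the 77 stretches lay in introns of Gm52992. Stretch 9 took 65.2, 116, 104 and 168 RPM, and stretch 10 took 65.1, 125, 119 and 144 RPM. At stretch 11 the levels were 47.9, 64.7, 89.2 and 141 RPM, with a log2 difference of 1.15 (SE 0.52, unadjusted p = 0.0763, adjusted p = 0.9998 by edgeR's quasi-likelihood test). Stretch 42 took 10.1, 17.6, 19.5 and 23.2 RPM. At stretches 11 and 42 each knockdown library exceeded each wild type library, and at stretches 9 and 10 the groups overlapped. In 15-qD1-17920 (chromosome 15, 59119215 to 59147071, minus strand) stretch 6 took 74.2, 143, 89.9 and 231 RPM and stretch 8, the longest at 548 nt, took 67.0, 121, 56.8 and 224 RPM.

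Over the 77 stretches each knockdown library was under each wild type library at 7, or 9.09%, beside 6.56% of the 2044 features. The reverse held at 6, or 7.79%, beside 7.0% of the features. Both shares are near the background. The lower ones were stretches 1, 23, 40, 46, 51, 54 and 57, of which 40, 51 and 54 had 0 reads in knockdown replicate 1. The higher ones were stretches 3, 11, 42, 66, 76 and 77. Of these, 66 and 76 lie in untranslated regions of Ubn1 and Epm2aip1, and 77 lies in that of Tktl2 inside the locus pi-Tktl2.

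No stretch passed the test across features. The fit held 2044 features, 120 of them nrRNA stretches or multi-place groups that passed 1 CPM in at least 2 libraries, and called 0 (0.0%) at an adjusted p under 0.05 by edgeR and 0 by DESeq2. At an unadjusted p under 0.05 there were 9 features by edgeR, 3 of them nrRNA, and 11 by DESeq2, 4 of them nrRNA. Of the 120, 77 had a positive and 43 a negative log2 difference, with a median of 0.29 beside 0.01 over all features. Scaled by the authors' factor the split was 64 and 56, with medians of 0.03 for the list and -0.24 over all features.

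The 3 nrRNA stretches of lowest unadjusted p had positive differences and few reads. Antisense to an intron of Sgsm2, at chr11:74754968-74755047, the levels were 0.270, 0.216, 2.39 and 5.14 RPM (log2 difference 4.002, SE 0.88, unadjusted p = 0.00528, adjusted p = 0.9998 by edgeR's quasi-likelihood test). The wild type levels there came from 3 and 2 reads, about the limit that a count of 0 allows. Antisense to an intron of Ip6k3, which encodes an inositol hexakisphosphate kinase, at chr17:27374623-27374681, the levels were 0.270, 0.756, 3.43 and 3.12 RPM (log2 difference 2.75, SE 0.77). Stretch 76 in the untranslated region of Epm2aip1 took 1.35, 1.19, 3.74 and 3.58 RPM (log2 difference 1.59, SE 0.60). At all 3 each knockdown library exceeded each wild type library, which their choice by lowest p favours. The Sgsm2 and Ip6k3 stretches passed the filter of 1 CPM only through the knockdown libraries. Their direction was thus fixed by the filter, and their differences and p-values are a description only. In the other direction the lowest p were those of the spacer stretch, of the multi-place spacer reads (log2 difference -1.47, SE 0.82) and of stretch 57 in 6-qF3-28913, which took 5.13, 13.1, 0.312 and 3.30 RPM.

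The fit by sequence covered 649 of the 24159 nrRNA sequences, which hold 69.7% of the reads, among 103209 sequences tested. It called 0 (0.0%) by edgeR and 0 by DESeq2. At an unadjusted p under 0.05 by edgeR there were 732 of the 103209 sequences, in either direction. Among the 649 nrRNA sequences 13 were lower in the knockdown and 0 higher, and 11 of the 13 came from the spacer. Of the 103 spacer sequences tested, 99 had a negative difference, with a median log2 difference of -1.65. Of the 438 in piRNA loci, 210 did, with a median of 0.05, and 133 had 0 reads in knockdown replicate 1. The same count at 0 over all sequences tested is not given here. The median over all sequences tested was -0.18. With DESeq2's size factors it was -0.01, and the nrRNA median was 0.01 in place of -0.17. Spacer sequences overlap one another and are not independent.

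Calls appeared when 1 knockdown library was left out. Without knockdown replicate 1 the stretch fit called 9 nrRNA stretches higher and 1 lower, with a background of 5.24% of features, and the fit without knockdown replicate 2 called 1 of them higher and 40 lower, with a background of 9.52%. By sequence the counts were 8 higher and 42 lower (background 10.4%) and 0 higher and 113 lower (background 15.7%). Without knockdown replicate 1 and without knockdown replicate 2, 112 and 102 nrRNA stretches or multi-place groups and 579 and 511 nrRNA sequences were tested. Each such fit takes the spread from the wild type pair, and the lone knockdown library is assumed to vary like it. Over all features of the stretch fit the calls were 21 higher and 83 lower without knockdown replicate 1 and 6 higher and 185 lower without knockdown replicate 2. Over all sequences they were 793 higher and 8554 lower, and 159 higher and 13071 lower.

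The Asap1 stretch differed from the locus stretches in length and first base. It lies on the strand of Asap1, which encodes an Arf GTPase-activating protein, in an intron, and GENCODE lists no small RNA gene there. Of its 6853 reads, 1.33% were 25 to 31 nt long and 0.219% began with U. Its leading sequence of 32 nt, shown here with 7 bases in capitals, took 2174, 691, 384 and 2721 reads.
Asap1 intron, 32 nt: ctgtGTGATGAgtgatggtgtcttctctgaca
The capitals spell GTGATGA, letters also found in the C box of box C/D small nucleolar RNAs, which guide the methylation of ribosomal RNA. On either strand ATGATGA or GTGATGA stood in 0.983% of the 158845 distinct 32 nt sequences of the table and in 1.11% of the 632 nrRNA ones, and a match of letters is a description only. The stretch took 231, 87.1, 45.8 and 279 RPM. Replicates of each group differed more than the groups did, with means of 158.8 ± 101.4 and 162.5 ± 164.9 (SD, n = 2; exact permutation p = 1.0).

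Sequences that share at least 11 bases with the repeated core and have more than 100 places took 548, 378, 412 and 367 RPM, with means of 463 ± 120.0 and 389.6 ± 32.3 (SD, n = 2; exact permutation p = 0.667). The core itself, 22 nt long, took 80.5, 48.3, 54.9 and 46.4 RPM. Its 15 searched bases stood in 15690 nrRNA reads and in 7238 reads of other classes, 5130 of them SINE, 1275 LTR and 833 ncRNA. Among the names of the SINE reads B1_Mus1 led with 2046 reads and B1_Mus2 followed with 1987, both B1 elements. U began 72.2%, 74.6%, 69.5% and 86.8% of the nrRNA reads of this group.

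Exons of 718 coding genes outside the loci held 157, 115, 108 and 161 RPM, with overlapping groups (exact permutation p = 1.0). Untranslated regions held 4764 of these reads and coding sequence 643. The genes with most reads were Arfgap2, an Arf GTPase-activating protein, at 5.31, 5.51, 4.78 and 8.35 RPM, Gm45140 at 6.93, 3.67, 2.70 and 6.05 RPM, and the glycerol kinase gene Gk5 at 5.40, 4.64, 4.47 and 3.30 RPM. Reads of 25 to 31 nt were 81.5%, 79.5%, 79.1% and 88.3% of this group, and U began 75.7%, 80.0%, 79.2% and 85.6% of its reads. A stretch of the nuclear long non-coding RNA Malat1 took 5.85, 1.73, 3.64 and 0.917 RPM.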

How the data were processed

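The deposited table lists each sequence of a library on 1 line per annotation, and its counts are the authors' unnormalized read numbers. A further column holds a ratio, the authors' scaling factor, used only as an alternative. The submitters' processing notes list cutadapt and the build mm39. An aligner, or how the nrRNA class was made, is not given in the sources used here. Per the labels' protocol, inserts of 18 to 40 bases were selected, and lengths from 16 to 47 nt were kept here. Library names were matched to the labels by group and number.

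Each sequence was counted once per library, although genes repeat lines. Sequences were placed by exact match to GRCm39, the Ensembl name of mm39, and annotated with GENCODE M39. Stretches are merged overlapping nrRNA sequences of 1 place, in order of their reads, and were defined after the table was seen. Counts per name, sequence and stretch were tested with edgeR 4.0.16 (robust quasi-likelihood, TMM, 1 CPM in at least 2 libraries) with Benjamini-Hochberg adjustment at 0.05, and with DESeq2 1.42.0, in R 4.3.3. The fits were tested on simulated data, with an outcome that is not given here. The fitted spread between libraries of a group (biological coefficient of variation) was 0.59 for names, 0.62 for stretches and 0.86 for sequences. With such a spread and 2 libraries per group, a result of 0 calls does not show that no change took place. Groups were compared by exact permutation over 6 assignments (scipy 1.17.1).

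Whether replicates came from separate animals is not given beyond the word biological, so p-values measure the spread between these libraries. The members, stretches and lists were chosen with earlier results of these data known. Text names the 10 most abundant sequences or their stretches, and the 3 stretches of lowest p in each direction. The planned rule by name covered 1 name, NA, so stretches stand in for names.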

Additional observations from a re-analysis of the deposited data

How the results depend on the processing

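Of 228 values recomputed under alternatives, 199 kept their direction and side of the threshold, 20 changed sign and 9 newly passed the threshold. Some of the 199 could not change. For levels and shares the replicate block gives the main difference again in this balanced design, and counting every line left the class shares as they were. The alternatives on stretches, on place groups and on U among reads of 25 to 31 nt were chosen after seeing the data. The cause of the changes below was not tested.

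Leaving out each library in turn moved the difference of the class (knockdown minus wild type) from -2092 to 710.0 RPM, that of the share of 25 to 31 nt from -11.7 to 12.8 points, that of U from 0.592 to 21.4 points and that of U among 25 to 31 nt from 4.33 to 20.7 points. The number of nrRNA sequences called ranged from 0 to 113 and that of stretches from 0 to 41, with 0 in each fit on the name. The ranges of the place groups were -1340.4 to -564 RPM for the spacer, -1188 to 1874 RPM for piRNA loci, -113 to 120.2 RPM for the Asap1 intron, -158 to 11.5 RPM for the repeated core and -27.8 to 25.7 RPM for coding exons. The log2 difference of the class ranged from -0.73 to 0.35, of the stretch in 12-qE-23911 from -15.04 to 1.84 (the lowest against a library at 0 and no bound), of stretch 4 from -2.23 to -0.01 and of the Asap1 stretch from -1.89 to 1.04.

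With each distinct sequence counted once, the difference of the 25 to 31 nt share was -0.042 points, and per 1000000 sequences that of piRNA loci was -93.2, of the repeated core 5.55 and of coding exons 32.8. The planned use of 1 class per sequence left each value as it was, because no nrRNA sequence had a 2nd class.

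With the replicate number as a block, the log2 difference was -4.52 for the stretch in 12-qE-23911, -0.26 for the Asap1 stretch, -1.17 for the spacer stretch and -0.16 for the class, and 0 features of the class were called on the 3 fits. The block split the 120 stretches into 60 positive and 60 negative. Deviations of libraries with the same number had a correlation of 0.35, 0.37 and 0.34 over names, stretches and sequences, and 2 pairs that share only a number do not show a pairing. Without the name filter 1 name, not of the class, was called lower.

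Depth limits the small stretches most, and 51.3% of the sequences had 1 read.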
